A study of Mus musculus with 6 samples.

Results

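The circadian clock genes Per1, Per2, Per3, Cry1, Cry2, Arntl, Clock, Nr1d1, Nr1d2 and Dbp were followed in RNA sequencing counts from mouse mammary tumour cells. They were chosen by gene name, and all 10 were found among the 41795 features of the count table. The cells came from the breast of FVB/N-Tg(MMTV-PyVT)634Mul/J mice, in which the polyoma virus middle T antigen is driven by a mammary tumour virus promoter and mammary tumours arise. All 6 libraries carried this transgene. Of these, 3 were labelled quiescent cancer stem cells (CSCs) and 3 were labelled activated CSCs. CSC is a term for tumour cells able to renew themselves, and quiescent a term for cells resting outside the cell cycle. Both names are taken from the labels, and neither property was tested here. The labels give neither how the cells were activated nor the age of the mice nor the time of day of collection. Whether libraries were made from separate animals or cultures is likewise unstated, and p-values therefore cover the variation among these 6 libraries alone, part or all of which may be technical.

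The mammalian clock is a feedback loop of transcription. The proteins of Clock and Arntl (also called Bmal1) pair and switch on genes that carry E-boxes, among them the Per, Cry, Nr1d and Dbp genes. PER and CRY proteins return to the nucleus and inhibit that pair, while the nuclear receptors encoded by Nr1d1 and Nr1d2 (REV-ERB alpha and beta) repress Arntl through ROR elements and oppose the ROR activators. Dbp encodes a bZIP factor that drives genes with D-boxes and is a common readout of clock output. Per1 and Per2 are also induced by serum, cAMP and glucocorticoid signals. In the mammary gland clock genes are expressed in epithelium and vary with the stage of development.

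Activated CSCs had higher levels of the 3 Per genes, Cry2 and Dbp and a lower level of Nr1d1 than quiescent CSCs. Per2 differed most, at 3.16-fold (95% interval 2.7 to 3.7), followed by Dbp at 1.85-fold. Nr1d1 was 1.63-fold lower. The activator genes Arntl and Clock did not pass the test, nor did Cry1 and Nr1d2. In edgeR's quasi-likelihood test across all genes, with a Benjamini-Hochberg adjusted p under 0.05 as the threshold, 5 of the 10 were thus higher, 1 was lower and 4 did not pass. All 10 had passed the filter on low counts. Over the 15223 genes tested, 47.5% passed, 24.1% as higher and 23.4% as lower, so a count of 6 in 10 lies near that background. When calls were also required to exceed 0.58 in absolute log2 fold change, 4 of the 10 remained against 18.1% of all genes, and above 1 Per2 remained against 9.33% of all genes. The median log2 fold change was 0.21 for the 10 and -0.0032 for all genes tested. In 7 of the 10 the CPM of the states did not overlap, as in 55.9% of all genes. CPM denotes a count scaled to a common library total, with TMM factors for composition. In bulk samples fewer cells that express a gene and less RNA per cell cannot be told apart.

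**Figure D1:**
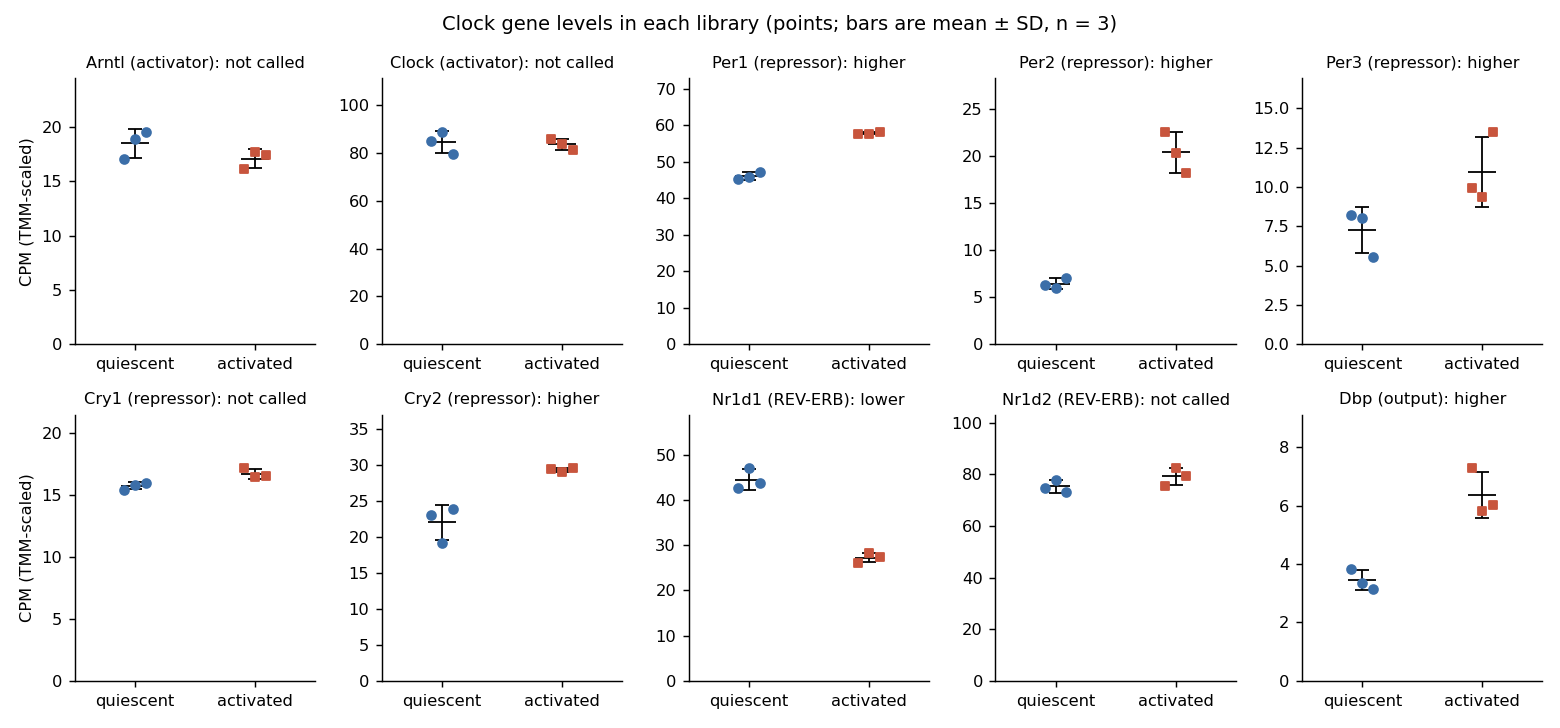
Level of each clock gene in CPM on a linear axis from 0, by state; points are the 3 libraries of a state and bars are mean ± SD, with the edgeR call in each title. Quiescent and activated points are clearly apart for Per1, Per2, Dbp and Nr1d1, and overlap for Arntl, Clock and Nr1d2.

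**Figure D2:**
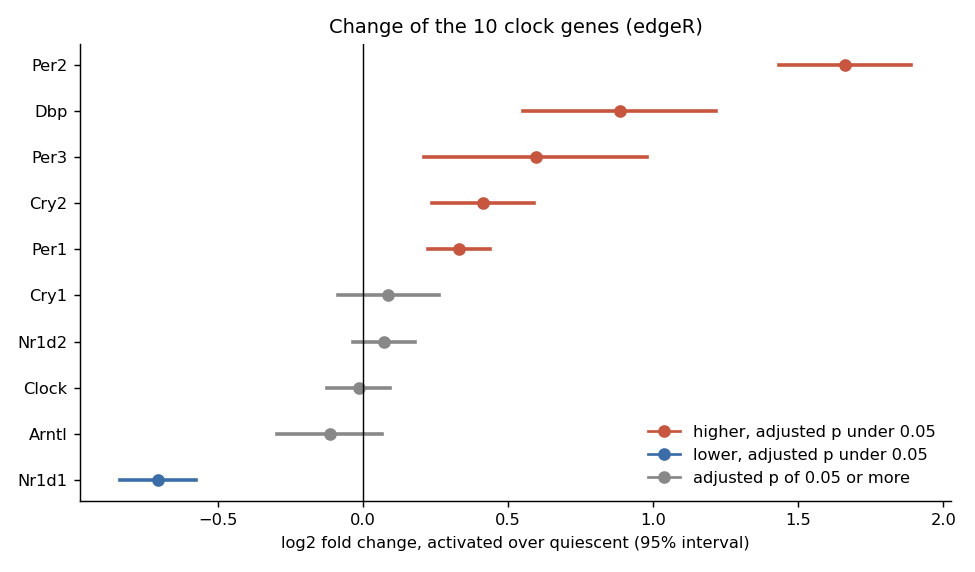
Log2 fold change of activated over quiescent CSCs with its 95% interval for the 10 clock genes, coloured by the edgeR call. Per2 lies farthest to the right at 1.66 and Nr1d1 alone lies to the left with an interval that leaves out 0.

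The libraries held 17785331 to 20510377 counts. Defining mammary epithelial markers were present, with the summed level of 11 markers at 8107 to 8410 CPM in quiescent and 7675 to 7868 CPM in activated libraries. Of the 11, 4 were higher (Krt19 2.70-fold, Elf5 2.36-fold, Krt14 and Esrp1), 4 were lower (Epcam, Cdh1, Cldn3 and Cldn7) and 3 did not pass. All 8 cycling cell markers were higher in activated libraries, with sums of 191 to 200 and 876 to 925 CPM. Of 10 fibroblast markers 9 were higher and 0 lower, with sums of 830 to 856 and 1472 to 1622 CPM. Of 10 myeloid markers 6 were higher and 1 was lower, with sums of 773 to 827 and 1145 to 1160 CPM. Lymphocyte markers summed to at most 1.41 CPM and endothelial markers to at most 6.19 CPM, with Nkg7, Ncr1 and Cldn5 at 0 in every library. Of the adipocyte markers Lep was at 0 and Lpl made up most of the sum of 111 to 115 and 131 to 138 CPM. The part of cycling, fibroblast or myeloid RNA in the clock gene differences was not tested.

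The exact letters of elements through which the loop acts were sought next to the starts of its own genes. RefSeq promoter sequences of GRCm38.p6 were matched for 9 of the 10 genes (Per2 was not among them), and the 250 bases before each start were searched on both strands. An E-box (CACGTG) was present for Per1 and Cry1, against 6.02% of all 32851 promoters. A D-box (TTATGTAA, its reverse complement TTACATAA, or TTACGTAA) was present for Per3, with 2 matches, against 0.931% of promoters. The ROR half-site (AGGTCA or GGGTCA) was present for Per1, Clock and Nr1d2, but 23.8% of promoters hold it. A cAMP response element (TGACGTCA) was found in 0 of the 9, against 1.55% of promoters. For Arntl, Cry2, Dbp and Nr1d1 these letters were not in the windows. Sites outside the 250 bases or with other letters were not searched, so these genes may still hold such elements. Some genes have several starts among these promoters, each with its own window, and a match at any of them was counted. Starts without a promoter sequence were not searched. The Per1 gene, for example, begins at 69095138, upstream of its windows. The shares of all promoters are per window, so they are not on the same unit as the counts of genes. The promoters of Per1, Cry1, Per3 and Nr1d2 are shown as examples that cover the elements found, that of Clock, with 1 half-site, being left out, and that of Ciart, which encodes a further repressor of the CLOCK and BMAL1 pair, because it holds 3 E-boxes. Capitals mark the matches. Those in Per1 (chr11:69098699-69098948, plus strand) begin 166 bases before the start for the E-box and 137 bases before it for the half-site. The others lie on the minus strand at chr10:85185055-85185304 for Cry1, chr4:151044666-151044915 for Per3, chr14:18239107-18239356 for Nr1d2 and chr3:95882229-95882478 for Ciart.
Per1: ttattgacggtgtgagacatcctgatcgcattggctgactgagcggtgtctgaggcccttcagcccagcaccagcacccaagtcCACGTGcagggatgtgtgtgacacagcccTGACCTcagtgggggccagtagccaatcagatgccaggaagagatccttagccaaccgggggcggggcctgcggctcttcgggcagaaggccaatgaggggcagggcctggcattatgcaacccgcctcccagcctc
Cry1: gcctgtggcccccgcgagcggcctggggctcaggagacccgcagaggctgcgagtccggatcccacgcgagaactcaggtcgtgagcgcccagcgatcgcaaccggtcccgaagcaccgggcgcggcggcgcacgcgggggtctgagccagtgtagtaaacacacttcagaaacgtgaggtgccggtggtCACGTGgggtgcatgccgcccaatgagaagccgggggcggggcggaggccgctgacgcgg
Per3: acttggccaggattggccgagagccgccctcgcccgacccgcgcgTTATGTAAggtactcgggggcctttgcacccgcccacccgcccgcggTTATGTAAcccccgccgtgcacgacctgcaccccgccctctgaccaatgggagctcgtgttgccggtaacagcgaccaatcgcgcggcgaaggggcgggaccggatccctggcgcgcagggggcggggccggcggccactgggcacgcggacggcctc
Nr1d2: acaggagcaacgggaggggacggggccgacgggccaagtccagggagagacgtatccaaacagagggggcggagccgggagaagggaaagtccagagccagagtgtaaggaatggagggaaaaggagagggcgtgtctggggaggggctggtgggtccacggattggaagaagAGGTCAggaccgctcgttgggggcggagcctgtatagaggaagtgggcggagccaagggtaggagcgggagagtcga
Ciart: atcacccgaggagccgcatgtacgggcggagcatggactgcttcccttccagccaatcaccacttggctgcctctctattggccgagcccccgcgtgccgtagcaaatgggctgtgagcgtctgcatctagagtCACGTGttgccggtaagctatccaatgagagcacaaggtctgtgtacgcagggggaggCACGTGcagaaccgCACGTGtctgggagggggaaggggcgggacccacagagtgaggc
Of the genes shown with an E-box, Per1 was higher in activated CSCs, Cry1 did not pass the test and Ciart was lower. A match is a description of the letters and not evidence of binding.

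The Per genes encode the repressors whose abundance sets the phase of the loop. Per2, NCBI gene 18627, lies on the minus strand of chromosome 1 in GRCm38, from 91415977 to 91459402. Its level was 6.3, 5.95 and 7.04 CPM in the quiescent libraries and 22.6, 20.3 and 18.2 CPM in the activated libraries. Every activated library was thus above every quiescent one. This is a log2 difference of 1.66 (SE 0.11, edgeR adjusted p = 1.35e-09), larger in size than that of 96.2% of the genes tested. These values rest on 110 to 134 counts in a quiescent and 371 to 403 in an activated library. Gm35591, a long noncoding gene that overlaps Per2 on the opposite strand, had at most 7 counts in a library.

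Per1 (gene 18626, chromosome 11, 69095138 to 69109965, plus strand), the Per gene with the highest level per length, changed far less than Per2. Its level was 45.1, 45.7 and 47.2 CPM in quiescent and 57.6, 57.7 and 58.2 CPM in activated libraries. The libraries of each state lay close together and the states did not overlap. Activated CSCs were 1.26-fold higher, with a 95% interval from 1.17 to 1.35 (log2 0.33, SE 0.05, adjusted p = 3.67e-05). That interval lies below the one for Per2. Per1 had 802 to 1192 counts in a library.

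Per3 (gene 18628, chromosome 4, 150997018 to 151044723, minus strand), which is less required for rhythms than the other Per genes, had the widest relative spread within a state of the 10, its highest CPM being 1.47 times its lowest. It was at 8.21, 8.01 and 5.57 CPM in quiescent and at 9.96, 9.36 and 13.5 CPM in activated libraries. Quiescent replicate 3 was low and activated replicate 3 was high, and the states did not overlap. Per3 rose by 0.60 on the log2 scale (SE 0.17, adjusted p = 0.0149). Leaving out activated replicate 3 gave 0.42 (adjusted p = 0.0462), and leaving out quiescent replicate 3 gave 0.43 (adjusted p = 0.0385). Its neighbour Vamp3, within 100 kb, had 154 counts in activated replicate 2 against 30 to 43 in the other libraries, and whether this bears on Per3 was not tested.

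The cryptochromes, which join the PER proteins as repressors, split. Cry2 (gene 12953, chromosome 2, 92403646 to 92434214, minus strand) was at 23.1, 19.3 and 23.9 CPM in quiescent and at 29.6, 29.1 and 29.6 CPM in activated libraries. All activated libraries were higher, and quiescent replicate 2 was the lowest of the 6. Cry2 rose by 0.41 on the log2 scale (SE 0.08, adjusted p = 0.000541). An antisense long noncoding gene that spans most of Cry2, D930015M05Rik, had 7 to 15 counts where cells were quiescent and 18 to 28 where they were activated. These counts are few beside the 356 to 606 of Cry2.

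Cry1 (gene 12952, chromosome 10, 85131700 to 85185054, minus strand) was at 15.4, 15.7 and 16 CPM in quiescent and at 17.1, 16.4 and 16.5 CPM in activated libraries. The activated libraries lay slightly above the quiescent ones without overlap. Even so the log2 fold change of 0.09 (SE 0.08, adjusted p = 0.408) did not pass, and its 95% interval reached from -0.09 to 0.26. The ratio of Cry1 to Cry2 counts, which does not depend on scaling between libraries, was 0.668, 0.817 and 0.668 in quiescent and 0.58, 0.565 and 0.558 in activated libraries.

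The REV-ERB genes also split. Nr1d1 (gene 217166, chromosome 11, 98767932 to 98775377, minus strand) was at 42.5, 47 and 43.8 CPM in quiescent and at 26.1, 28.1 and 27.4 CPM in activated libraries. All activated libraries were lower, with a gap several times wider than the spread within a state. Nr1d1 fell by 0.71 on the log2 scale (SE 0.06, adjusted p = 6.65e-08), and it was the sole clock gene of the 10 called lower. Nr1d1 overlaps the 3' end of Thra, a thyroid hormone receptor gene on the opposite strand, by 1075 bases. Thra went from 28.2 ± 1.63 CPM in quiescent to 24.6 ± 1.26 CPM in activated libraries (SD, n = 3; log2 -0.20, adjusted p = 0.0399). No source used here gives the strand used in counting, so reads from the shared stretch cannot be told apart.

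Nr1d2 (gene 353187, chromosome 14, 18204056 to 18239106, minus strand), which encodes the partner receptor, was at 74.8, 77.9 and 73.1 CPM in quiescent and at 75.6, 82.3 and 79.5 CPM in activated libraries. The states overlapped. The 95% interval of the log2 fold change, 0.07 (SE 0.05, adjusted p = 0.26), reached from -0.03 to 0.18 and that of Nr1d1 from -0.84 to -0.57. The Nr1d1 to Nr1d2 ratio of counts was 0.568, 0.603 and 0.598 in quiescent and 0.345, 0.342 and 0.345 in activated libraries. All activated ratios lay below all quiescent ones.

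The activators showed no change that passed the test. Arntl (gene 11865, chromosome 7, 113178470 to 113314126, plus strand) was at 17, 18.9 and 19.6 CPM in quiescent and at 16.1, 17.7 and 17.4 CPM in activated libraries, and the states overlapped. Arntl differed by -0.12 on the log2 scale (SE 0.09, adjusted p = 0.29; 95% interval -0.30 to 0.07). Clock (gene 12753, chromosome 5, 76209868 to 76305000, minus strand), a histone acetyltransferase and the partner of Arntl, was at 85, 89 and 79.6 CPM in quiescent and at 85.8, 83.6 and 81.5 CPM in activated libraries. The states overlapped entirely. Clock differed by -0.02 (SE 0.05, adjusted p = 0.826). The 95% interval, -0.12 to 0.09, covers folds from 0.918 to 1.07, on 1511 to 1668 counts in a library.

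Dbp (gene 13170, chromosome 7, 45705093 to 45710203, plus strand), the output factor, was at 3.82, 3.35 and 3.15 CPM in quiescent and at 7.28, 5.8 and 6.01 CPM in activated libraries. All activated libraries were higher, activated replicate 1 most so. Dbp rose by 0.88 on the log2 scale (SE 0.16, adjusted p = 0.000182). The values rest on 60 to 68 counts in a quiescent and 106 to 130 in an activated library. Its 3' end overlaps Sphk2, a sphingosine kinase gene on the opposite strand, by 741 bases. Sphk2 moved the other way, from 54.8 ± 0.266 to 49.7 ± 2.25 CPM (SD, n = 3; log2 -0.14, adjusted p = 0.0361). It was thus well above Dbp in both states. As for Nr1d1 and Thra, the strand used in counting is not given, so reads from the shared stretch cannot be told apart.

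Levels of different genes were compared per length as TPM, the length-corrected share of each library, from the counts and gene lengths of the deposited table. In quiescent libraries the order from high to low was Nr1d2, Nr1d1, Clock, Per1, Cry2, Cry1, Arntl, Dbp, Per2 and Per3. It ran from 41.6 ± 1.86 TPM for Nr1d2 and 41.2 ± 2.43 TPM for Nr1d1 to 2.73 ± 0.198 TPM for Per2 and 1.1 ± 0.235 TPM for Per3 (SD, n = 3). Neighbours whose libraries overlapped were Nr1d2 with Nr1d1 and Cry2 with Cry1. In activated libraries Nr1d1, at 25.7 ± 0.926 TPM, no longer overlapped Nr1d2 at 44.6 ± 1.78 TPM. By the same lengths Per2 moved from the ninth to the seventh place, at 8.82 ± 0.951 TPM, and there overlapped Arntl at 7.81 ± 0.377 TPM. Arntl in turn overlapped Dbp at 6.6 ± 0.842 TPM. The order depends on the length used. The table gives Per3 16996 bases, against 5999 for its longest GENCODE M21 basic transcript, and Arntl 5722 against 2976. By the GENCODE lengths Arntl was at 16.5 TPM in quiescent libraries, above Cry2 and Cry1, and Per3 at 3.21 TPM, above Per2 at 2.92 TPM. Per1 was then above Clock, at 26.1 against 23 TPM. In activated libraries Arntl, at 15.5 TPM by these lengths, was above Per2 at 9.41 and Dbp at 9.34 TPM, and Per1, at 33.4 TPM, was above Nr1d1 at 27 TPM. The overlap of Per2 and Dbp with Arntl therefore depends on the length used for Arntl.

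**Figure D3:**
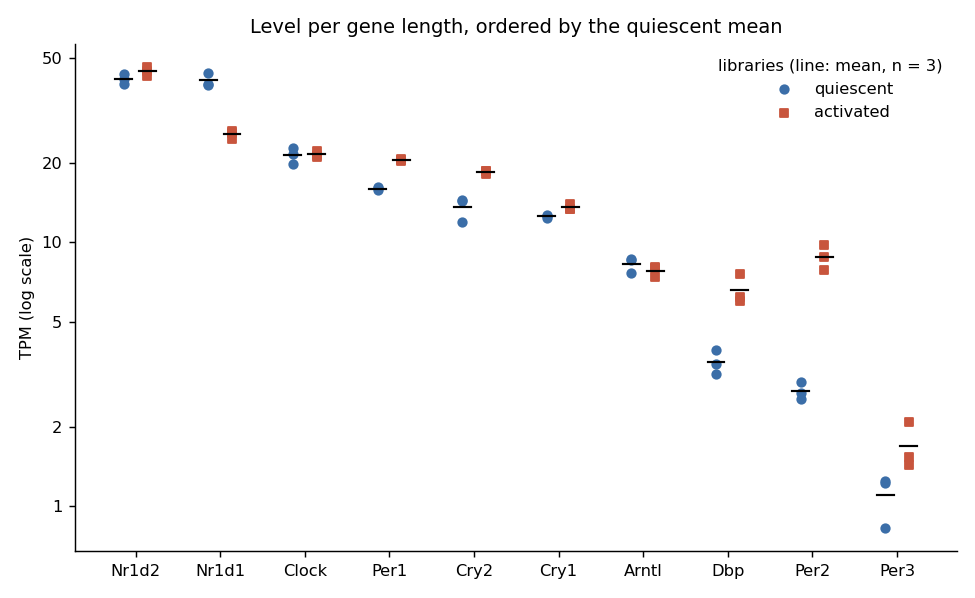
Level of each clock gene in TPM on a log axis, ordered by the quiescent mean; points are libraries and lines are means of 3. By the table's gene lengths, Nr1d1 drops away from Nr1d2 in activated libraries and Per2 and Dbp lie near Arntl; by GENCODE lengths they stay below it, at 9.41 and 9.34 against 15.5 TPM.

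The balance of activator to target was also taken within each library, where scaling between libraries has no part. Arntl counts were 2.71, 3.18 and 2.78 times those of Per2 in quiescent and 0.715, 0.873 and 0.957 times in activated libraries. Per2 counts thus exceeded those of Arntl in each activated library and in no quiescent one, but counts also depend on gene length. By GENCODE lengths Arntl stayed above Per2 in activated libraries, at 15.5 against 9.41 TPM. The ratio of Arntl to Dbp counts went from 4.46, 5.65 and 6.22 to 2.22, 3.06 and 2.9. Arntl to Nr1d1 went the other way, from 0.401, 0.403 and 0.448 to 0.618, 0.63 and 0.636. Targets of the same activators therefore moved in opposite directions relative to Arntl. Within the Per genes, Per1 counts were 7.16, 7.67 and 6.7 times those of Per2 in quiescent and 2.55, 2.84 and 3.2 times in activated libraries. These ratios are given as values with no test.

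**Figure D4:**
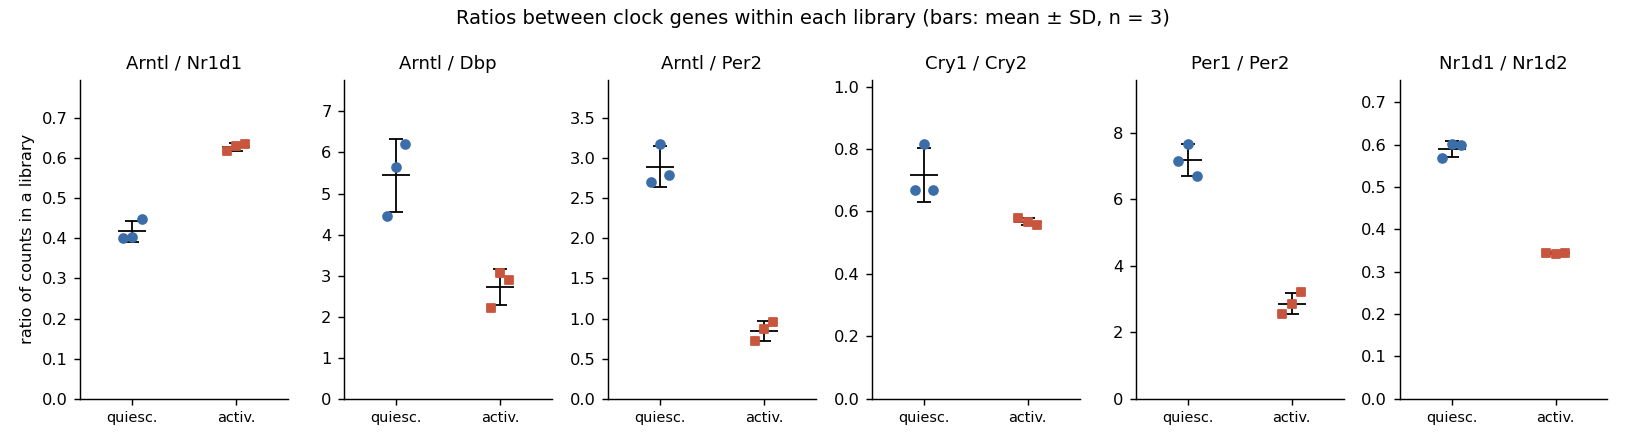
Ratio of the counts of paired clock genes within each library, on linear axes from 0; points are libraries and bars are mean ± SD of 3. The Arntl to Nr1d1 ratio is higher in activated libraries, and the other 5 ratios are lower, with no overlap between states in any of the 6.

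The rest of the pathway was read from 5 lists of other clock genes, 57 of them in the table and all tested. Of these 22 were higher, 14 were lower and 21 were not called. Their median was -0.03 on the log2 scale. The share that passed was 63.2%, against 47.5% of all genes. By direction, 38.6% were higher and 24.6% were lower, against 24.1% and 23.4% of all genes. The same shares of all genes are the background for each list below. The lists were chosen with earlier results of these data known, so their shares only describe the genes listed. Named below by rule are genes called with an absolute log2 difference over 0.58 and whichever gene had the lowest adjusted p in its list. Rora, Tef, Nfil3, Csnk1e, Csnk1d, Nampt, Wee1 and Nr3c1 fall outside that rule and were added for their roles, after their values were seen.

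Of 12 other loop factors 8 were higher and 2 were lower. Rora, for the activator ROR alpha that competes with REV-ERB proteins, went from 30.8 ± 2.64 to 34.9 ± 0.641 CPM (log2 0.18, adjusted p = 0.0378). Timeless, whose mammalian product acts in DNA replication as well as the clock, rose 1.85-fold (adjusted p = 1.54e-07). Npas2, a paralogue of Clock that also pairs with BMAL1, rose 1.57-fold on 70 to 135 counts in a library (adjusted p = 0.00298). Ciart had 29, 43 and 36 counts in quiescent and 24, 17 and 20 in activated libraries and was called lower (log2 -0.85, SE 0.26, adjusted p = 0.0125). DESeq2 did not make that call (adjusted p = 0.087). It was also lost when quiescent replicate 2 (adjusted p = 0.0711) or activated replicate 2 (adjusted p = 0.052) was left out.

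Of the 3 other D-box factors Hlf and Tef, the PAR bZIP relatives of Dbp, were higher. Hlf was at 21.8, 22.9 and 22.4 CPM in quiescent and at 75, 83.1 and 77.4 CPM in activated libraries. Among the clock and clock pathway genes that passed the test it had the largest log2 fold change, 1.81 (SE 0.06, adjusted p = 1.25e-13). Tef went from 57.7 ± 2.3 to 65.3 ± 2.31 CPM (log2 0.18, adjusted p = 0.0104). Nfil3, which binds D-boxes as a repressor, was at 24.9 ± 1.99 and 26.6 ± 0.919 CPM (adjusted p = 0.331). All 3 PAR bZIP genes, Dbp, Hlf and Tef, were thus higher, by unequal amounts.

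Of 17 kinases, phosphatases and ubiquitin ligases of clock proteins 3 were higher and 5 were lower, while 9 were not called. The list's median was -0.09 on the log2 scale. Usp2, a deubiquitinase with rhythmic expression, rose 1.66-fold from 9.14 ± 0.784 CPM (adjusted p = 1.08e-05). Fbxw11, a beta-TrCP ligase that marks PER proteins for degradation, fell by 0.30 on the log2 scale from 231 ± 3.82 to 188 ± 8.18 CPM (adjusted p = 1.03e-05). Csnk1e, the casein kinase 1 epsilon gene, went from 141 ± 1.31 to 118 ± 2.81 CPM, while its relative Csnk1d was at 304 ± 4.16 and 288 ± 13.1 CPM and did not pass (adjusted p = 0.107).

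Of 19 clock-controlled output genes 9 were higher, 4 were lower and 6 did not pass. Several of these genes stand in other lists too. Por, the electron donor of cytochrome P450 enzymes, fell from 213 ± 6.14 to 130 ± 5.95 CPM (log2 -0.71, adjusted p = 4.65e-10). Nampt, of NAD synthesis, was at 53.6 ± 0.812 and 45 ± 1.77 CPM and Wee1, the mitotic inhibitor kinase, at 52.6 ± 2.14 and 62.6 ± 1.23 CPM. Both passed, Nampt as lower and Wee1 as higher. Tsc22d3, also a glucocorticoid target, rose 1.52-fold (adjusted p = 0.000183).

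Signals that induce Per1 and Per2 were followed through 14 genes, some of them responsive and some inputs themselves, such as Nr3c1. Of the 14, 6 were higher, 4 were lower and 4 did not pass. The immediate early gene Fos was at 192, 196 and 203 CPM in quiescent and at 612, 604 and 608 CPM in activated libraries (log2 1.63, SE 0.04, adjusted p = 2.4e-15). Egr1 rose 1.92-fold and Sik1, a CREB-induced kinase that restrains Per1 induction, also rose 1.92-fold. Dusp1, a phosphatase induced by stress and glucocorticoids, was 1.57-fold lower (adjusted p = 9.49e-07). Nr3c1, the glucocorticoid receptor gene, was at 82.5 ± 2.94 and 73.8 ± 2.53 CPM, called lower (adjusted p = 0.0144). Members of the list thus went both ways.

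**Figure D5:**
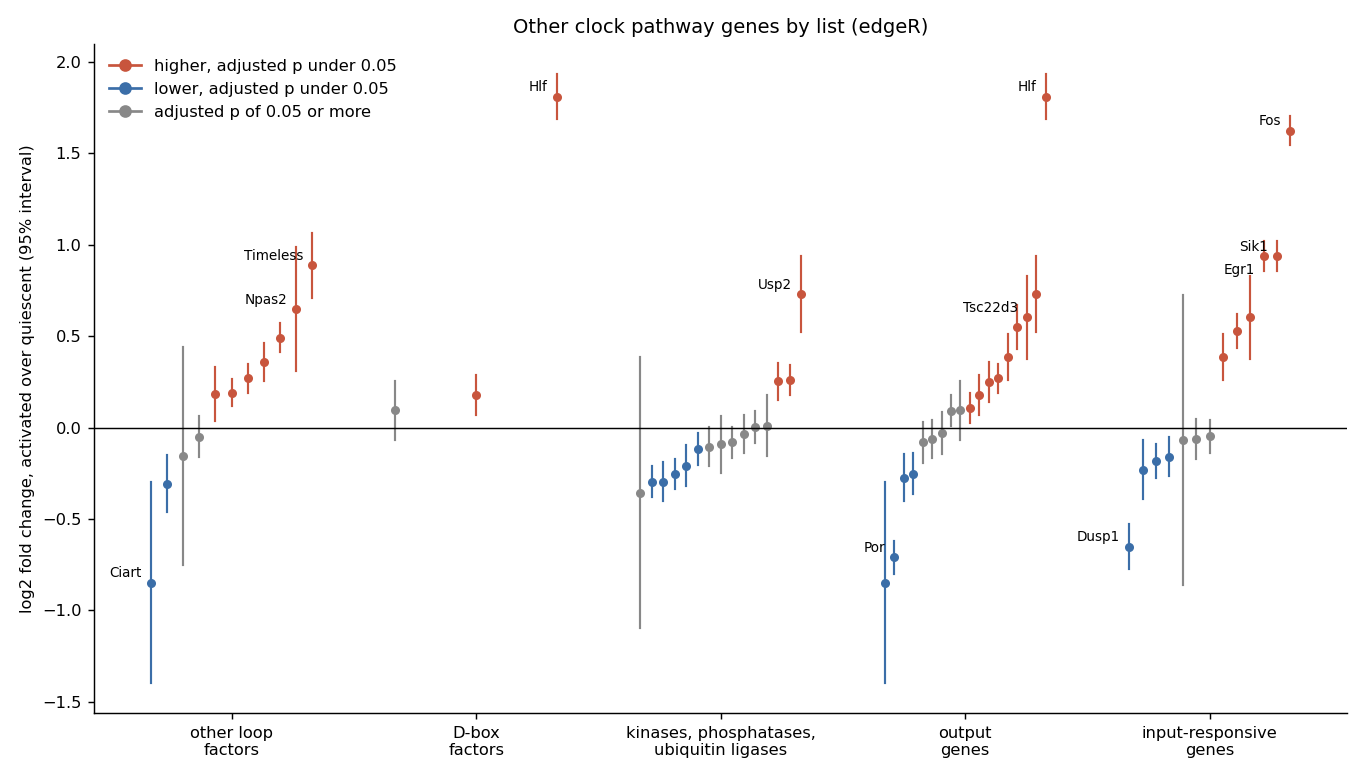
Log2 fold change of activated over quiescent CSCs with 95% intervals for the other clock pathway genes in 5 lists, coloured by the edgeR call; genes in several lists appear in each. Hlf at 1.81 and Fos at 1.63 stand highest. Fkbp5, Ppard and Csnk2b, with unstable counts, and genes not reported here are not drawn.

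Patterns most like those of a member were sought by Pearson correlation of log2 CPM over all 6 libraries, quiescent and activated together. Any difference between the states therefore enters r. For Per2 they were Cep192 (r = 0.9997), Nrg2 (0.9996) and Ercc6l (0.9994), and for Dbp they were Cited4 (0.9999), Zfp292 (0.9985) and Snx5 (0.9985). A correlation above 0.95 with Per2 was reached by 1507 of 11057 genes and with Dbp by 957 of 11058, so such values are common. For Arntl the nearest were Dlst (0.9906), Tspan33 (0.9899) and Rfx1 (0.9886), and only 21 genes passed 0.95.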

How the data were processed

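Per the file headers and their whole-number values, the authors deposited unnormalized read counts for 6 libraries. The gene length column, in bases, is also the authors'. The submitters' processing notes name featureCounts 1.5.0-p3, HISAT2 2.0.5 and StringTie 1.3.3b, without their roles. Chromosome accessions are those of GRCm38. Unnamed loci held 0.144 to 0.239% of the counts and were kept. Members, lists and tests were chosen with earlier results of these data known. Differences were fitted in R 4.3.3 by edgeR 4.0.16 (robust quasi-likelihood test, TMM, filterByExpr, Benjamini-Hochberg adjustment over all genes tested), on 3 against 3 libraries. SE is the absolute log2 fold change over the square root of the F statistic. All replicate pairs differed by more than sampling noise (chi-square over degrees of freedom 2 to 6.08). The pairs with activated replicate 1 had the highest values, 5.55 and 6.08. Without that library the log2 fold change was 1.59 for Per2 and 0.78 for Dbp, and both were still called. The fit was tested on simulated data: unchanged genes passed an unadjusted 0.05 at about the nominal rate, but in most draws very small p-values arose more often than nominal, and with few changed genes false calls exceeded the nominal share. The smallest printed p-values may thus be too small. Correlations used log2(CPM + 1) of genes with at least 5 CPM on average. Alternatives used DESeq2 1.42.0, limma-voom (limma 3.58.1), other scalings, filters and thresholds, a replicate block and leaving out each library. Unstable counts means a CPM that varied more than 3-fold within a state, values under 1 CPM being set to 1. Pathway genes were named where called with a log2 of at least 0.58 in size, or with the smallest adjusted p of their list. Some genes of the lists are counted in them but not reported here by name.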

Additional observations from a re-analysis of the deposited data

How the results depend on the processing

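The count of clock genes called was 6 under RLE scaling, library totals alone, DESeq2, limma-voom, both other filters and without the genes with unstable counts, and 6 to 6 when each library was left out. It was 5 at an adjusted p under 0.01, where Per3 was lost. Requiring an absolute log2 difference of 1, which by construction fewer genes meet, left 1420 of all genes, 1 clock gene (Per2) and 3 other pathway genes. Across the fits without 1 library, calls numbered 6387 to 7359 among all genes and 30 to 36 among other pathway genes. In the TPM order averaged over the kept libraries of both states, 10 to 10 clock genes kept their place. The quiescent order of Nr1d2 and Nr1d1 was not firm. Nr1d1 was above Nr1d2 in quiescent replicate 2 (44 against 43.5 TPM) and quiescent replicate 3 (40 against 39.8 TPM). With the longest GENCODE M21 transcripts as lengths, chosen after seeing the data, 4 of the 10 kept their place in the order averaged over all 6 libraries. Same-numbered libraries of the states did not deviate together (r = 0.028, -0.039 and 0.047), so the numbers were not taken as pairs. With the replicate number as a block 7042 genes were called, 5 clock genes (Per3 had an adjusted p = 0.0666) and 37 other pathway genes. No called clock gene changed sign in any setting. Clock, not called, was at 0.02 without quiescent replicate 2 and 0.0055 without activated replicate 3. Dbp, Npas2 and Ciart rest on under 140 counts in a library, which limits their precision.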

Other observations

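Genes with unstable counts within a state were spread unevenly over chromosomes. Of 184 such genes 45 lay on chromosome 17, 6.45% of its 698 tested genes, and 33 on chromosome 11, 2.66% of 1239. Chromosome 11 also holds Per1, Nr1d1, Hlf and Fbxw11, whose own counts were not unstable in this sense. Chromosome 7, which holds Arntl and Dbp, had 0 among 1144 tested genes. The 3 clock pathway genes among them, Csnk2b, Fkbp5 and Ppard, all lie on chromosome 17. Csnk2b, a casein kinase 2 subunit gene, had 33, 34 and 52 counts in quiescent and 34, 841 and 398 in activated libraries. Fkbp5, a glucocorticoid target, had 118, 49 and 17 counts in quiescent and 204, 23 and 127 in activated libraries. Ppard, a nuclear receptor gene, had 33, 136 and 29 counts in quiescent and 16, 76 and 24 in activated libraries. None of the 3 passed the test. No clock gene of the 10 had a highest CPM within a state above 1.47 times its lowest.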
